A study of Mus musculus with 15 samples.

Results

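The monocyte chemoattractant chemokine cluster is a run of neighbouring CC chemokine genes on mouse chromosome 11. Its 6 genes, Ccl2, Ccl7, Ccl11, Ccl12, Ccl8 and Ccl1, were found in the gene count table by their Ensembl identifiers, as 6 of 53465 genes. The cells were bone marrow-derived macrophages (BMDMs), grown from mouse marrow for 7 days in medium with 10% serum and 20 ng/ml of the macrophage growth factor M-CSF. They were then left without added cytokine (control) or given, for 24 h, IL-4 (10 ng/ml) or IL-13 (40 ng/ml), each used by itself and in combination with IL-6 (40 ng/ml), the latter groups being IL-4/IL-6 and IL-13/IL-6. Each of the 5 groups had 3 RNA-seq libraries, 15 in all. Because IL-4 and IL-13 were used at different doses, a difference between them cannot be told apart from a difference of dose. No group received IL-6 alone. The genotype and age of the mice that gave the sequenced cells are not stated for these samples. The study's supplement calls the libraries of a treatment group biological replicates, but neither it nor the labels say whether they were separate mice or cultures, so p-values measure only the spread between these libraries.

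Library totals ran from 17001352 to 18918686 counts, so a difference in depth between groups was small. All 7 macrophage markers examined, including Adgre1, Csf1r and Lyz2, were detected in every group, with a summed level of 18649 to 20817 CPM (counts scaled to the normalized library size) in control and from 10857 to 19501 CPM over the treated groups, lowest with IL-4/IL-6. Lyz2 made up most of the sum, with means of 14924 CPM in control and 6852 CPM in IL-4/IL-6. The others moved both ways between these groups. Adgre1 (844.2 and 1288 CPM), Cd68 (1317 and 1509) and Fcgr1 (154.8 and 216.6) were higher in IL-4/IL-6. Csf1r (2195 and 1581), Itgam (193.0 and 168.6) and Mertk (142.5 and 12.7) were lower. The control libraries also held transcripts of other marrow cells. The 6 granulocyte markers summed to 258.3 to 311.4 CPM in control and to 0.979 to 1.95 CPM over the treated groups, and the 7 fibroblast and stromal markers to 16.8 to 21.5 CPM in control and at most 0.482 CPM in treated libraries. The 4 endothelial markers did not follow this pattern. They summed to 22.1 to 27.2 CPM in control, 7.91 to 13.9 with IL-4 and 18.7 to 24.1 with IL-13, and were higher with IL-6, at 19.1 to 24.2 CPM in IL-4/IL-6 and 41.1 to 42.1 CPM in IL-13/IL-6, with Tek at 0 or at most 3 counts in every treated group. The 3 eosinophil markers summed to 27.9 to 32.4 CPM in control, 4.04 to 5.62 with IL-4 and 3.77 to 5.10 with IL-13. They were lower with IL-6, at 0.749 to 0.964 CPM in IL-4/IL-6 and 0.926 to 1.22 CPM in IL-13/IL-6. Siglecf held nearly all of these treated sums. The part of these markers in the IL-6 comparisons was not tested. In these bulk samples, fewer cells of a type and less RNA per cell cannot be told apart.

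CC chemokines are small secreted proteins that guide leukocytes by acting on G protein-coupled receptors. CCL2, CCL7 and CCL12 are known as monocyte chemoattractant proteins that act on CCR2, a receptor through which inflammatory monocytes leave the marrow and enter tissue. CCL8 in the mouse is best known as a ligand of CCR8, CCL11 (eotaxin) attracts eosinophils through CCR3, and CCL1 is a ligand of CCR8. IL-4 and IL-13 act through STAT6 and IL-6 mainly through STAT3.

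In the GRCm38 genome with the GENCODE M21 annotation, the cluster lies at chr11:82035571-82305690, a span of 270.12 kb that contains no other gene entirely. Ccl2 (ENSMUSG00000035385) lies at chr11:82035571-82037453 on the plus strand, and an antisense gene, Gm17268, overlaps it but had 0 counts in every library. Ccl7 (ENSMUSG00000035373) follows at chr11:82045712-82047525, Ccl11 (ENSMUSG00000020676) at chr11:82057823-82062955, Ccl12 (ENSMUSG00000035352) at chr11:82101845-82103400 and Ccl8 (ENSMUSG00000009185) at chr11:82115185-82116799, all on the plus strand. Ccl1 (ENSMUSG00000020702) lies on the minus strand at chr11:82176657-82305690, where the annotation includes a long transcript that reaches well beyond the short gene. The genes are related but distinct in sequence. Aligned over their longest coding sequences, Ccl12 and Ccl8 shared 65.4% of positions, Ccl7 and Ccl8 64.1%, Ccl7 and Ccl12 63.5%, and Ccl7 and Ccl1 53.6%. None of the 50-base stretches of any of the 6 genes' transcripts occurred in a transcript of another gene. The search covered annotated transcripts in their own sense only and not the rest of the genome. Whether reads can be placed uniquely was not tested.

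Ccl12 and Ccl8 were at 0 without cytokine and rose more with IL-6 than Ccl2 and Ccl7 did, and the upstream sequences of the genes with an entry in the RefSeq promoter table (GRCm38.p6) are shown for this reason. The table held Ccl12, Ccl8 and Ccl1 of the 6 genes. The 250 bases before each start are printed 5′ to 3′ on the gene's own strand, from chr11:82101595-82101844 (plus) for Ccl12, chr11:82114935-82115184 (plus) for Ccl8 and chr11:82179813-82180062 (minus) for Ccl1, and capitals mark the TATA motif.
Ccl12: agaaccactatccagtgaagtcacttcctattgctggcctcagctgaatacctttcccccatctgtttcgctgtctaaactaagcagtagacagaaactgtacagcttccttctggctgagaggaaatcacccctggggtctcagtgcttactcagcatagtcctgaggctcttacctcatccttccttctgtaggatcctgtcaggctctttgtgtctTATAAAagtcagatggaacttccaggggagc
Ccl8: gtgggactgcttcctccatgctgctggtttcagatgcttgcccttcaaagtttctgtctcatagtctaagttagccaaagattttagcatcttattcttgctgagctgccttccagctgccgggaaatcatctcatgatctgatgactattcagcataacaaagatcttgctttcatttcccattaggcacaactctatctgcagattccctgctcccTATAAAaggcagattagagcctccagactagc
Ccl1: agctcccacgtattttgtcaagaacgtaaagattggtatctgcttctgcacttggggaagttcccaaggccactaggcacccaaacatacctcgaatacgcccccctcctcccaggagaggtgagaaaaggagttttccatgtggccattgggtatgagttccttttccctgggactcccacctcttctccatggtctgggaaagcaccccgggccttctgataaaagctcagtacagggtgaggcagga
Searched on both strands, the letters TATAAA occurred at bases -31 to -26 of Ccl12 and at bases -32 to -27 of Ccl8, counted back from the start site, and not in Ccl1. The same letters occurred in 12.368% of 32851 upstream windows of this length. None of these 3 windows held a STAT6-type motif, TTC and GAA with 4 bases between (5.854% of all windows), an AP-1 motif TGACTCA or TGAGTCA (4.463%), an NF-kB-type motif, GGG and TTTCC with 2 bases between (1.412%), an IRF-type motif, GAAA and GAAA with 2 bases between (2.977%), or a C/EBP-type motif, TTGC and AAT with 2 bases between (2.113%). No match overlapped another. Over the whole window, the Ccl12 and Ccl8 sequences shared 54.5% of aligned positions, against 49.6% for Ccl12 and Ccl1 and 47.0% for Ccl8 and Ccl1.

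Ccl2, the main ligand of CCR2, was present at a low level without cytokine and rose in every treated group. Its counts were 127, 112 and 93 in the control libraries, 5472, 5368 and 5663 with IL-4, and 39903, 45639 and 33113 with IL-4/IL-6. With IL-13 they were 2543, 2179 and 2070, and with IL-13/IL-6 they were 15834, 15192 and 17132. The 5 groups did not overlap, in the order control, IL-13, IL-4, IL-13/IL-6 and IL-4/IL-6. In the quasi-likelihood test of edgeR, adjusted by Benjamini-Hochberg over 13938 genes, Ccl2 rose 49.7-fold with IL-4 (log2 fold change 5.64, SE 0.14, adjusted p = 7.34e-15) and 20.2-fold with IL-13 (4.34, SE 0.14, adjusted p = 1.61e-13). Adding IL-6 raised it a further 7.63-fold over IL-4 (2.93, SE 0.11, adjusted p = 2.01e-12, edgeR) and 7.37-fold over IL-13 (2.88, SE 0.11, adjusted p = 6.79e-12, edgeR).

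Ccl7, another ligand of CCR2, started lower than Ccl2 and reached a higher level. The control libraries held 29, 28 and 15 counts, the IL-4 libraries 7940, 7654 and 8555. Those with IL-4/IL-6 held 65713, 78712 and 52940. The IL-13 libraries held 2528, 2260 and 2151 counts and the IL-13/IL-6 libraries 26884, 25203 and 28699. The groups did not overlap and stood in the same order as for Ccl2. Ccl7 rose 333.8-fold with IL-4 (log2 8.38, SE 0.24, adjusted p = 3.67e-15, edgeR) and 94.8-fold with IL-13 (6.57, SE 0.24, adjusted p = 6.47e-14, edgeR). IL-6 raised it 8.68-fold over IL-4 (3.12, SE 0.12, adjusted p = 5.99e-12, edgeR) and 12.1-fold over IL-13 (3.60, SE 0.12, adjusted p = 3.48e-12, edgeR). In the IL-4/IL-6 libraries it took 0.358% of all counts, and per length (mean FPKM, fragments scaled to gene length and library total) it ranked 5 of 19769 genes above 0, against rank 73 of 20205 with IL-4 and rank 10115 of 22093 in control.

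Ccl12, a mouse gene whose product also acts on CCR2, was not detected without cytokine. All 3 control libraries held 0 counts, which allows a group level of up to 0.0545 CPM for counting error only. The IL-4 libraries held 63, 44 and 56 counts and the IL-13 libraries 18, 21 and 12, whereas counts with IL-4/IL-6 were 3972, 4587 and 3078 and those with IL-13/IL-6 were 1611, 1643 and 2071. Low counts with a single cytokine thus became high counts with IL-6, with no overlap between any of the groups. IL-6 raised Ccl12 75.6-fold over IL-4 (log2 6.24, SE 0.20, adjusted p = 1.14e-12, edgeR) and 107.7-fold over IL-13 (6.75, SE 0.30, adjusted p = 6.79e-12, edgeR). Control was set at 3 counts over the group. Against it, the level was at least 54.3-fold higher with IL-4, 16.8-fold with IL-13, 4110-fold with IL-4/IL-6 and 1820-fold with IL-13/IL-6. Ccl12 passed the filter on low counts only through treated libraries and could only come out higher than control. For this reason no p-value is given for these comparisons.

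Ccl8 had the same pattern. It was at 0 counts in the 3 control libraries, at 129, 66 and 136 with IL-4 and at 44, 17 and 37 with IL-13. With IL-4/IL-6 the counts were 12390, 16683 and 9811, and with IL-13/IL-6 they were 5224, 4682 and 5695. Every treated group lay above control and both IL-6 groups above both single-cytokine groups. IL-6 raised Ccl8 124.8-fold over IL-4 (log2 6.96, SE 0.25, adjusted p = 1.37e-11, edgeR) and 165.4-fold over IL-13 (7.37, SE 0.34, adjusted p = 5.13e-11, edgeR). Against the control floor the level was at least 110.3-fold higher with IL-4, 32.2-fold with IL-13, 13733-fold with IL-4/IL-6 and 5332-fold with IL-13/IL-6. As for Ccl12, no p-value is given against control, because Ccl8 could only come out higher there.

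**Figure D1:**
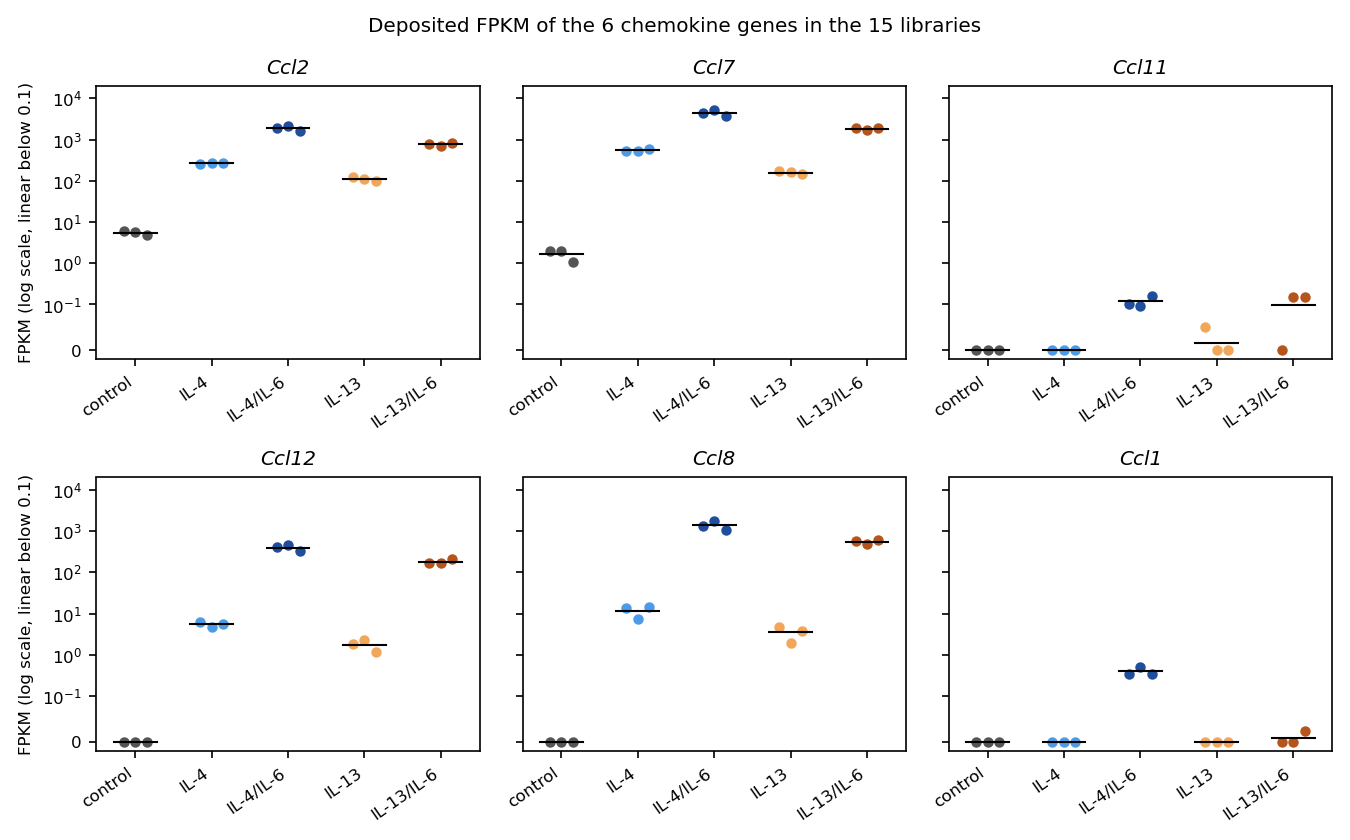
Deposited FPKM of each of the 6 genes in the 15 libraries, on a log axis that is linear below 0.1, with points for libraries and lines for group means. Ccl2 and Ccl7 were above 1 FPKM in every library, Ccl12 and Ccl8 were at 0 in control and highest in the IL-6 groups, and Ccl11 and Ccl1 stayed below 1 FPKM.

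Ccl1 and Ccl11 were rare. Ccl1 was detected in the IL-4/IL-6 libraries at 15, 23 and 14 counts, in 1 IL-13/IL-6 library at 1 count, and in no other library. Thus it reached a mean of 0.397 FPKM in IL-4/IL-6, where its level was at least 18.4-fold higher than in control and at least 18.4-fold higher than in IL-4. The ratio of IL-4/IL-6 to IL-13/IL-6 was 53.7, with a counting interval of 9.23 to 2163, at unequal doses of IL-4 and IL-13. It passed the filter on low counts only through the libraries in which it was high, so no p-value is given for it. Its low counts may come from any of the exons of the 2369-bp gene model, including those of the long transcript. Ccl11 was left out by the filter on low counts. It had 2, 2 and 3 counts with IL-4/IL-6, 0, 3 and 3 with IL-13/IL-6, and 1 count in a single IL-13 library, with 0 counts in control and IL-4. The IL-4/IL-6 level was at least 2.47-fold that of control or IL-4 and the IL-13/IL-6 level at least 2.05-fold that of control, while the ratio of IL-13/IL-6 to IL-13 was 6.24 (counting interval 0.757 to 287.0). At this depth Ccl11 was not detectable beyond these few counts.

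Counting the 5 genes tested, 4 were called higher with IL-4 than in control, where 32.1% of all tested genes were, and 4 with IL-13, where 29% were. Over control, all 5 were called higher with IL-4/IL-6 (35.4% of all genes) and 4 with IL-13/IL-6 (31.9%). With IL-6 added, 5 rose over IL-4 (20.7%) and 4 over IL-13 (12.1%), and none of the 5 fell in any of these comparisons. Ccl1 passed the filter only through the IL-4/IL-6 libraries and had to be higher there, so its calls are no support for a change of the cluster and the counts without it are 4 in each of these comparisons. Ccl12 and Ccl8, at 0 in control, passed the filter only through treated libraries. They could only be called higher in the comparisons with control, so those calls are no support for a change either. Ccl2 and Ccl7, which had counts in control, were called higher in each of these comparisons. The 4 comparisons with control share the same control libraries, in which the granulocyte and stromal markers were higher, as given above, while all 6 genes were at or near their lowest. The part of these markers in the result was not tested. The comparisons between cytokine-treated groups set no control level against another, although the control libraries entered the shared fit. With upper-quartile scaling in place of TMM, 39.0% of the genes called when IL-6 was added to IL-4 were higher, against 52.6% with TMM, but Ccl2, Ccl7, Ccl12 and Ccl8 kept their calls.

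**Figure D2:**
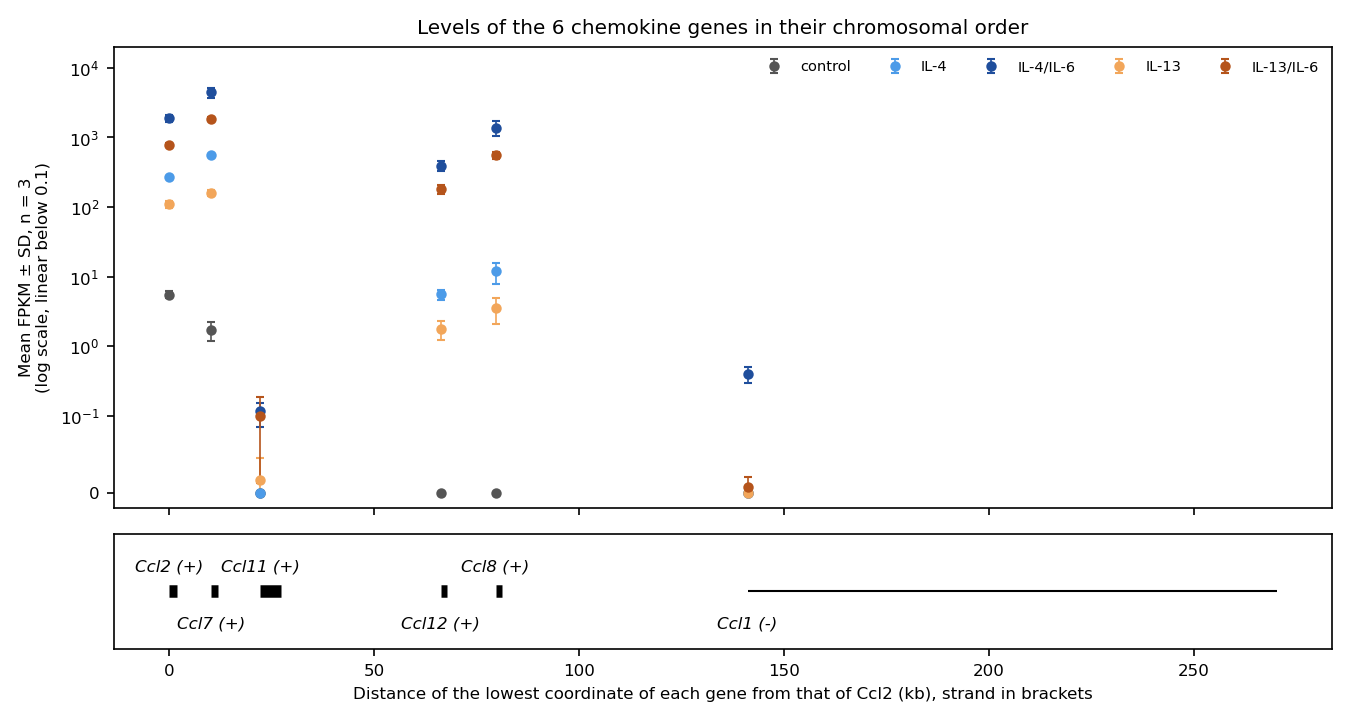
Upper panel, mean FPKM with SD (n = 3) of each gene at the distance of its lowest coordinate from that of Ccl2, in kb, with a log axis that is linear below 0.1; lower panel, the extent and strand of the 6 genes. Ccl11, which lies between Ccl7 and Ccl12, stayed at or below a mean of 0.118 FPKM, whereas Ccl7 reached a mean of 4458 FPKM with IL-4/IL-6.

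Per length, the make-up of the cluster's output changed with IL-6. The summed FPKM of the 6 genes was 7.21 ± 1.15 (SD, n = 3) in control, 837.1 ± 37.4 with IL-4, 8113 ± 1363 with IL-4/IL-6, 274.0 ± 27.6 with IL-13 and 3342 ± 260.5 with IL-13/IL-6. Ccl2 held 76.9% of the sum in control, 31.8% with IL-4 and 40.0% with IL-13. Ccl7 held 23.1% in control and was the largest contributor in every treated group, at 66.1% with IL-4, 58.1% with IL-13, and 55.0% and 54.9% with IL-4/IL-6 and IL-13/IL-6. Ccl8 rose from 1.41% ± 0.447 (SD, n = 3) with IL-4 to 16.8% ± 1.19 with IL-4/IL-6 and from 1.28% ± 0.506 with IL-13 to 16.6% ± 0.472 with IL-13/IL-6. Ccl12 held 0.665% and 0.636% with the single cytokines and 4.83% and 5.39% with IL-6. In the 2 IL-6 groups the 4 shares lay within about 1 percentage point of each other, although the summed level differed between them.

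**Figure D3:**
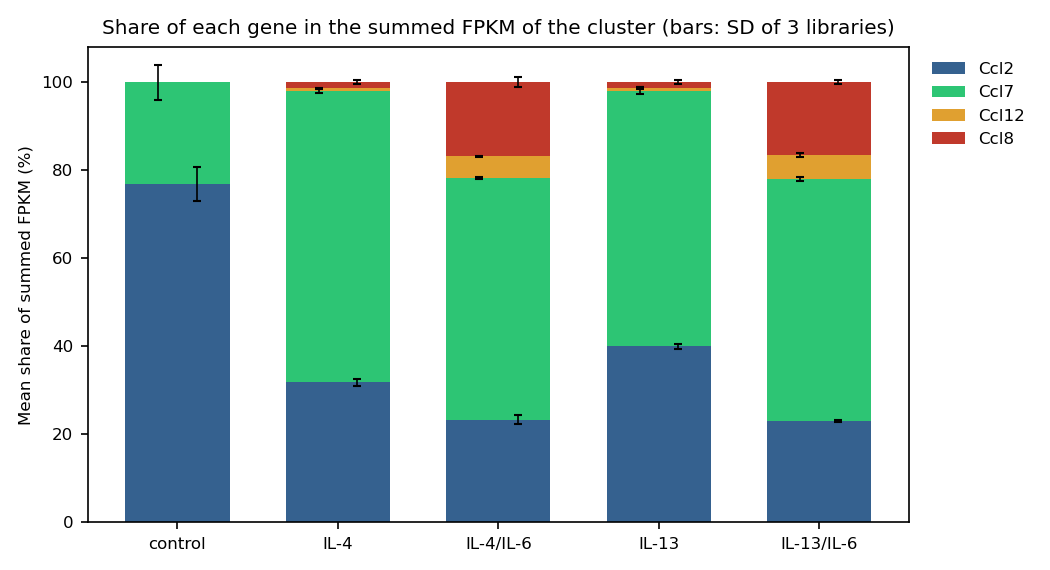
Mean share of the summed FPKM of the 6 genes held by Ccl2, Ccl7, Ccl12 and Ccl8 in each group, with bars for the SD of 3 libraries at the upper edge of each segment; Ccl11 and Ccl1, together under 0.02%, are not drawn. Ccl8 and Ccl12 are visible mainly in the IL-6 groups, at 16.8% and 4.83% with IL-4/IL-6.

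IL-4 and IL-13 differed in the size of the response, at doses of 10 and 40 ng/ml. Of the 5 tested genes, 4 were called higher with IL-4 than with IL-13, where 5.16% of all genes were. The difference was 1.30 on the log2 scale for Ccl2 (SE 0.11, adjusted p = 3.63e-07, edgeR), 1.82 for Ccl7 (SE 0.13, adjusted p = 4.83e-08), 1.69 for Ccl12 (SE 0.34, adjusted p = 0.00207) and 1.77 for Ccl8 (SE 0.38, adjusted p = 0.00352). With IL-6 on both sides the same 4 genes were called higher with IL-4/IL-6 (15.8% of all genes), and Ccl1, which was tested only through those libraries, is left out of this count. The differences were 1.35 for Ccl2, 1.34 for Ccl7, 1.18 for Ccl12 and 1.37 for Ccl8 on the log2 scale. The widest SE of these last 4 values was 0.19, for Ccl8, and the largest edgeR adjusted p was 7.54e-05.

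The effect of IL-6 on the log2 scale was also compared between the IL-4 and IL-13 backgrounds. The comparison could be made for Ccl2, Ccl7, Ccl12 and Ccl8 but not for Ccl1, which was at 0 in both single-cytokine groups. None of these 4 genes was called different between the 2 backgrounds by edgeR at adjusted p 0.05, where 7.64% of all genes were; at an unadjusted p under 0.05 the count was 1, Ccl7, and DESeq2 called 0. The difference for Ccl2 was 0.05 (95% interval -0.27 to 0.37, adjusted p = 0.925, edgeR), and its sign turned without IL-4/IL-6 replicate 2 (-0.085), IL-13 replicate 1 (-0.053) or IL-13/IL-6 replicate 2 (-0.015). For Ccl7 it was -0.48 (95% interval -0.85 to -0.11, unadjusted p = 0.0144, adjusted p = 0.125, edgeR), the IL-6 effect being smaller on IL-4. Without IL-4/IL-6 replicate 2 it was -0.65 with an edgeR adjusted p of 0.00237, and over all alternatives it ran from -0.65 to -0.35 with adjusted p from 1.23e-05 to 0.263. The intervals for Ccl12, -1.29 to 0.27, and Ccl8, -1.31 to 0.50, were wider, and their counts with a single cytokine were low.

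**Figure D4:**
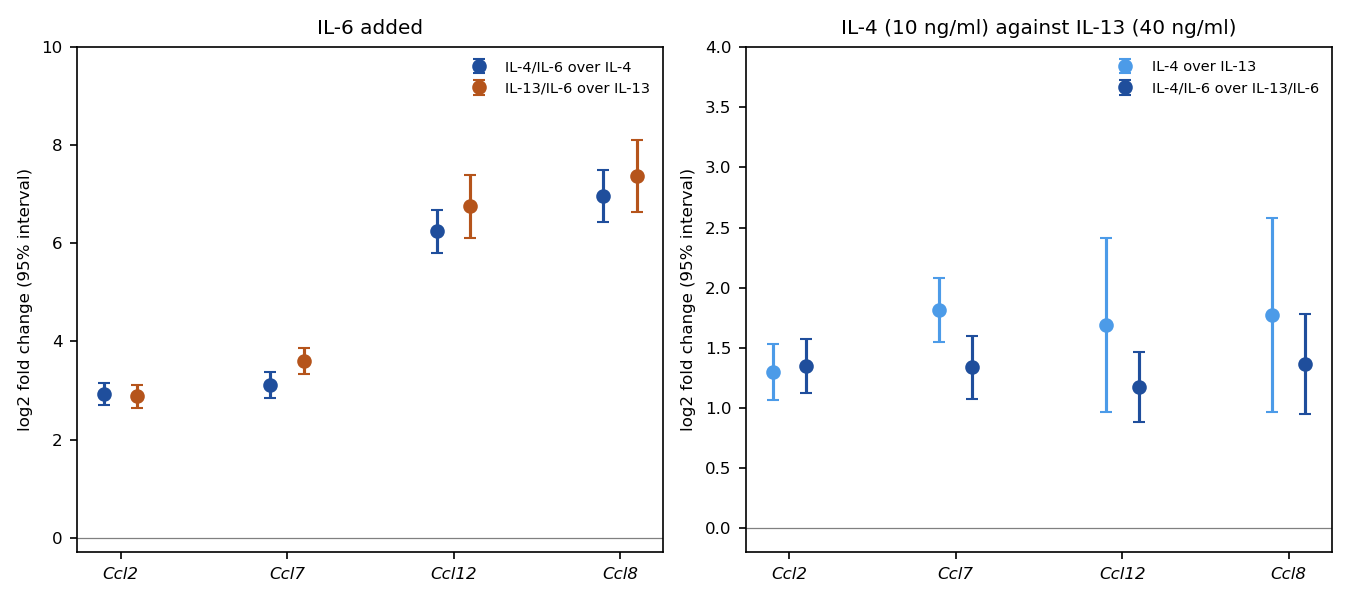
Log2 fold change with 95% interval of 4 genes. The left panel shows the addition of IL-6 to IL-4 and to IL-13, where Ccl12 and Ccl8 lie above 6 and Ccl2 and Ccl7 below 4; the right panel shows IL-4 over IL-13 without and with IL-6, all between 1.18 and 1.82.

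In IL-4/IL-6, replicate 2 was highest and replicate 3 lowest for Ccl2, Ccl7, Ccl12 and Ccl8, and the coefficient of biological variation over all genes was highest in this group, at 14.9% against 4.49% in control. After the group means were removed, Pearson's r over the 12 treated libraries was 0.980 for Ccl2 and Ccl7, 0.746 for Ccl2 and Ccl12, 0.460 for Ccl2 and Ccl8 and 0.194 for Ccl12 and Ccl8. These correlations are a description, and the libraries share the groups and the normalization. Over all 15 libraries, r was 0.996 both for Ccl2 with Ccl7 and for Ccl12 with Ccl8, mostly through the group means.

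The genes whose log2 CPM was most like that of each member over the 15 libraries were named as the 5 highest Pearson's r. For Ccl2 they were Kat14 (r = 0.994), Sdc4, Odc1, Nme4 and Ap2m1, and for Ccl7 Sema3c (r = 0.993), Pla2g4a, Pgrmc2, Efhd2 and Drg2. For Ccl12 they were Mrc1 (r = 0.995), the mannose receptor gene used as a marker of IL-4-treated macrophages, with Timp1, Riok3, Ctsl and Ccng1. Ccl8 had Timp1 (r = 0.994), Ctsl, Mrc1, Cndp2 and Riok3, sharing 4 of these with Ccl12. Ccl1 had 2610300M13Rik (r = 0.982), Prlhr, Gm38070, Cd209d and Anxa6, of which 2610300M13Rik had a mean of 0.924 CPM with IL-4/IL-6. Spearman's rho shared only 0 or 1 of the 5 genes with this choice for any member, and log2(FPKM + 1) shared 1 to 3, so the named genes depend on the measure.

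Of the receptor genes of these chemokines, Ccr1 and Ccr3 rose over control in every treated group, as Ccl2 and Ccl7 did, whereas Ccr2 fell. Ccr1, Ccr2 and Ccr3 were tested, whereas Ccr8, Ackr1 and Ackr2 were at 0 or a few counts. Ccr2, the receptor of CCL2, CCL7 and CCL12, had a mean of 82.2 CPM in control, 14.8 with IL-4, 3.66 with IL-4/IL-6, 18.8 with IL-13 and 13.6 with IL-13/IL-6. It fell by 2.01 on the log2 scale when IL-6 was added to IL-4 (adjusted p = 7.66e-09, edgeR) and by 0.46 when IL-6 was added to IL-13 (adjusted p = 0.0105). Its fall over control went with the fall of the granulocyte markers given above, and the part of those cells was not tested. Ccr1, a receptor of several CC chemokines, had means of 47.6, 98.3 and 253.0 CPM in control and then with IL-4 without and with IL-6, and of 66.4 and 284.5 CPM with IL-13 without and with IL-6. Ccr3, the eotaxin receptor, had means of 1.12, 29.3 and 42.3 CPM, and 18.2 and 71.4 CPM, in the same order. With IL-6 added to IL-4, Ccr1 and Ccr3 rose and Ccr2 fell, and the same held with IL-6 added to IL-13. For these 3 the IL-6 effect was lower on IL-4 than on IL-13 by a called difference, from -0.74 to -1.55 on the log2 scale. Of all tested genes, 7.64% had a called difference. Whether the receptor genes differed from the cluster genes in this was not tested.

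**Figure D5:**
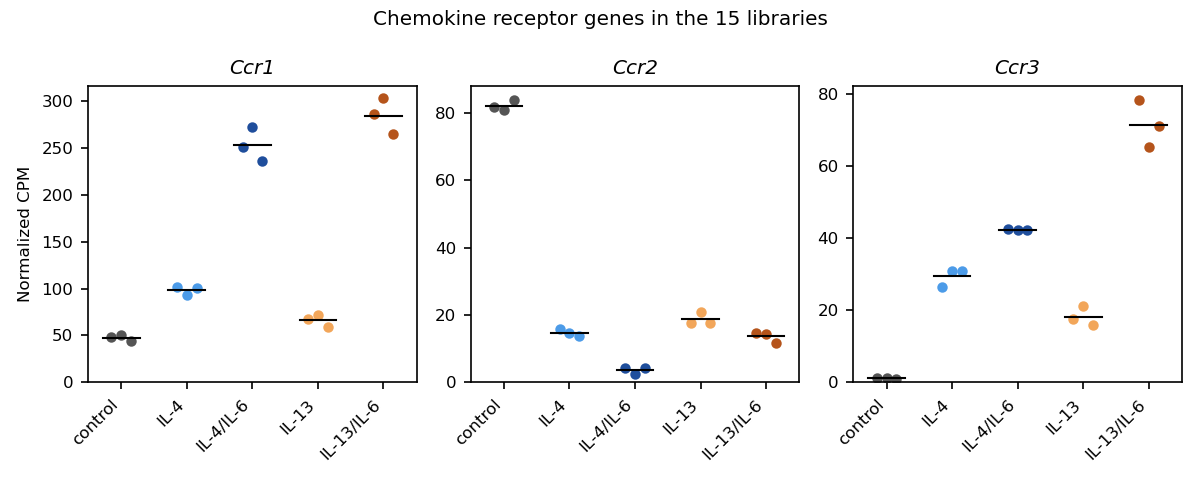
Normalized CPM of 3 chemokine receptor genes in the 15 libraries, with lines for group means. Ccr2 was highest in control, at a mean of 82.2 CPM, and Ccr1 and Ccr3 were highest in IL-13/IL-6, at means of 284.5 and 71.4 CPM.

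The other CC chemokines changed less uniformly. Of 12 genes on the list, 8 were tested, and with IL-6 added to IL-4 3 rose, 1 fell and 4 did not pass the test, where 20.7% of all tested genes rose and 18.7% fell, with a median log2 change of 0.17 against 0.04 over all tested genes. With IL-6 added to IL-13, 5 rose, 1 fell and 2 did not pass, where 12.1% of all tested genes rose and 13.5% fell, with a median of 0.54 against 0.01. Ccl24, known as eotaxin-2 and encoded outside the cluster, had a mean of 0.183 CPM in control, 12.5 with IL-4, 235.7 with IL-4/IL-6, 1.16 with IL-13 and 32.0 with IL-13/IL-6, and rose by 4.24 on the log2 scale with IL-6 on IL-4 (adjusted p = 3.07e-13, edgeR). Ccl4, a chemoattractant of leukocytes, rose by 1.07 on the log2 scale with IL-6 on IL-4 (adjusted p = 2.98e-06, edgeR) and by 2.15 on IL-13 (adjusted p = 1.58e-09). Ccl22, a CCR4 ligand, fell by 1.16 (adjusted p = 0.0450, edgeR) and by 1.67 (adjusted p = 0.00965). Ccl3, another leukocyte chemoattractant, changed by -0.02 with IL-6 on IL-4 (adjusted p = 0.869, edgeR) and rose by 0.63 on IL-13 (adjusted p = 8.06e-06), and the 2 effects differed by -0.65 (adjusted p = 0.000983). Of the 3 protein-coding genes nearest the cluster on each side, Zfp830 was the only one tested, and its log2 change lay between -0.08 and 0.13 in all 9 comparisons, with no call.

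Of 11 cytokine receptor and STAT genes, 10 were tested. Il4ra, the IL-4 receptor alpha chain, had a mean of 90.3 CPM in control, 35.7 with IL-4, 2312 with IL-4/IL-6, 51.0 with IL-13 and 1563 with IL-13/IL-6. It rose by 6.02 on the log2 scale with IL-6 on IL-4 (adjusted p = 4.58e-18, edgeR) and by 4.94 on IL-13 (adjusted p = 5.06e-17), in the same libraries in which Ccl12 and Ccl8 were high. Socs3, a feedback inhibitor induced by STAT3, went from 1.69 to 128.7 CPM with IL-6 on IL-4 and from 1.27 to 106.9 CPM on IL-13. Stat3 rose by 1.72 and 1.63 on the log2 scale with IL-6 on IL-4 and on IL-13 (edgeR adjusted p = 1.51e-11 and 5.60e-11).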

How the data were processed

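RNA of bone marrow-derived macrophages was sequenced by the study's service provider. The submitters' processing notes name GRCm38, CASAVA, Bowtie2 2.2.3, HISAT2 2.1.0, TopHat2 and DESeq2, with no role for each; the read counter and its strand setting are not given in the sources used here. The authors deposited raw counts per gene for 53465 genes in 15 libraries and FPKM lists for 26080 genes. The deposited FPKM divide each count by gene length and library total, and for all 6 genes the implied length matched the GENCODE M21 exon union. Here, counts were tested with edgeR 4.0.16 in R 4.3.3 (filterByExpr with a minimum count of 10, TMM factors, 1 quasi-likelihood fit of all 15 libraries, two-sided, Benjamini-Hochberg adjustment over 13938 genes, calls at adjusted p under 0.05). Of the 6 genes, 5 passed the filter. CPM were computed with TMM-scaled library sizes, and FPKM served for levels per length, their ranks and their sums, and for no test. Groups at 0 were set at 3 counts over the group, and intervals of count ratios are exact at 95%; both cover counting error only. Coding and upstream sequences were aligned globally with Biopython 1.88 (match 1, mismatch -1, gap -3, extension -1). The scripts were tested on simulated counts. DESeq2 1.42.0, upper-quartile factors, other filters, a stricter call rule, a replicate block, fits of the compared groups only and leaving out each library were tried as alternatives. The genes of the cluster, the gene lists and the rule for genes of like pattern (5 highest Pearson's r, prior count 2) were chosen with earlier results of these data known. Some genes and motifs of the lists are not reported here.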

Additional observations from a re-analysis of the deposited data

How the results depend on the processing

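The log2 fold changes of Ccl12 and Ccl8 over control could only be higher and are counted here. Of 756 log2 fold changes of Ccl2, Ccl7, Ccl12 and Ccl8 under the alternatives, 751 kept their direction and their side of the threshold. In 3 the Ccl2 difference between the 2 IL-6 effects, 0.05 and not called, turned to -0.085 without IL-4/IL-6 replicate 2, -0.053 without IL-13 replicate 1 and -0.015 without IL-13/IL-6 replicate 2, also not called, in a range of -0.085 to 0.154 over the libraries left out. In the other two the Ccl7 difference was called at -0.53 (edgeR adjusted p = 1.23e-05) with no filter on low counts and at -0.65 (edgeR adjusted p = 0.00237) without IL-4/IL-6 replicate 2; the count of cluster genes called there was then 1 in place of 0, with a range of 0 to 1 over the libraries left out. The cause was not tested. Requiring an absolute log2 fold change above 1 left fewer genes called overall by construction, at 3641 for IL-4, 2835 for IL-13, 4598 for IL-4/IL-6 and 3405 for IL-13/IL-6 over control, 1646 and 1010 for IL-6 on IL-4 and on IL-13, 295 for IL-4 over IL-13, 860 for IL-4/IL-6 over IL-13/IL-6 and 262 for the difference of the IL-6 effects. A fit of the compared groups only called 2900 genes between IL-4/IL-6 and IL-13/IL-6, against 4368 with all libraries in the fit. Leaving out 1 library moved the count between IL-4 and IL-13 from 1779 to between 1088 (without IL-13 replicate 3) and 2915 (without IL-13 replicate 1), and by over 1.5 times also without IL-4 replicate 2 or 3, IL-13 replicate 2 or IL-4/IL-6 replicate 2. Same-numbered libraries did not deviate together (r from -0.28 to 0.16, over 0.1 in 3 of 30 pairs, best match of the same number in 14 of 60), so no pairing was assumed. With a replicate block 5228 genes were called for IL-6 added to IL-4 and 3368 for IL-6 added to IL-13, against 5488 and 3563 without, and Ccl2, Ccl7, Ccl12 and Ccl8 were called in both fits. Ccl1, tested only through the IL-4/IL-6 libraries, is left out of these counts and was not tested at a minimum count of 50. Upper-quartile scaling moved the share of higher calls in the difference of the IL-6 effects from 42.2% to 31.7%. Shares by CPM in place of FPKM differ because the genes differ in length; Ccl8 then held 10.5% with IL-4/IL-6. Depth limits Ccl11 and Ccl1, and Ccl12 and Ccl8 with a single cytokine.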
